A study of Homo sapiens with 4 samples.

Results

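Spliceosomal small nuclear RNAs (snRNAs) were examined in RNA recovered with ORC1-FLAG from nuclei. The rows described were RNU4-1, RNU4-2, RNU2-59P, RNU2-63P, RNU2-3P and RNU1-67P, which are 6 of the 63677 genes in the table and 6 of its 1804 snRNA rows. They were matched by Ensembl gene identifier to the GENCODE v44 annotation of GRCh38, and they were selected on their measured counts, for strong depletion from the immunoprecipitate relative to Input. Their ratios of immunoprecipitate to Input are therefore a description, and no p-value is given for them. RNU4-1 and RNU4-2 are annotated as U4 snRNA genes, and the other rows are annotated copies of U2 and U1 snRNA genes whose names end in P, the mark of a pseudogene.

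The 4 libraries were made from nuclei of asynchronous HCT116 cells, a human colorectal carcinoma line. The cells had been transfected for 48 h with a pcDNA3.1 plasmid encoding 3xFLAG-tagged ORC1 from a codon-optimized sequence. ORC1 is a subunit of the complex that marks replication origins. RNA was sequenced from 2 native anti-FLAG immunoprecipitates (IP) and from the 2 nuclear lysates taken without antibody (Input), after depletion of ribosomal RNA. Cells of both groups carried the plasmid, expression was transient, and no library of a control antibody or of untransfected cells was analysed here, so that Input was the only reference. The labels number the experiments replicate 1 and replicate 2, without saying that they came from separate cultures, so errors and p-values measure the spread between these libraries, which may be technical.

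snRNAs are short, abundant nuclear RNAs that form the core of the spliceosome. U1 snRNA pairs with the 5′ splice site, U2 snRNA pairs with the branch site, and U4 snRNA holds U6 snRNA in an inactive duplex until the spliceosome is activated. Apart from U6, which is bound by LSm proteins, each carries a ring of Sm proteins on a uridine-rich Sm site, and the genome holds many diverged copies of each gene.

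The sequences of the listed rows are shown first because copies of one family differ at few bases, and the assignment of reads to one row rests on those bases. They are the DNA-alphabet transcripts of GENCODE v44, 5′ to 3′. In the U4 genes, which are both 141 bases long and lie on the minus strand at chr12:120293097-120293237 (RNU4-1) and chr12:120291763-120291903 (RNU4-2), capitals mark the Sm site AATTTTTGA at bases 118 to 126.
RNU4-1: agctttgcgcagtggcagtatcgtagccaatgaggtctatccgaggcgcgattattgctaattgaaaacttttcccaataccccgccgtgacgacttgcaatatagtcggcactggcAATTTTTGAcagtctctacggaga
RNU4-2: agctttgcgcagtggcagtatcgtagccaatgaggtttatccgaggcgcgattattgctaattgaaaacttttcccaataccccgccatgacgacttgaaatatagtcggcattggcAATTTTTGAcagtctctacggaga
The 2 genes matched at 137 of 141 bases (97.2%). Counted from the 5′ end, with the base of RNU4-1 first, the differences were C37T, G88A, C99A and C113T. The intervening distance was 1193 bases. AATTTTTGA occurred in 34 of 90 annotated U4 genes and copies (37.8%) and in 1.37% of the 1900 annotated transcripts of 140 to 200 bases.

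The U2 copies lie at chr10:101364845-101365035 on the minus strand (RNU2-59P, 191 bases), chr15:95745804-95745994 on the plus strand (RNU2-3P, 191 bases) and chr2:88016354-88016547 on the minus strand (RNU2-63P, 194 bases). RNU2-1, a U2 gene at chr17:43233787-43233977 on the minus strand, is shown for comparison. Capitals mark the branch site recognition sequence GTGTAGTA and the Sm site ATTTTTGG.
RNU2-1: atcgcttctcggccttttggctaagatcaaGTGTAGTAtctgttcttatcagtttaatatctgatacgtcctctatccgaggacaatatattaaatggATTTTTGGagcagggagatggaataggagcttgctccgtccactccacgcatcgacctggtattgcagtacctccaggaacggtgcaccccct
RNU2-59P: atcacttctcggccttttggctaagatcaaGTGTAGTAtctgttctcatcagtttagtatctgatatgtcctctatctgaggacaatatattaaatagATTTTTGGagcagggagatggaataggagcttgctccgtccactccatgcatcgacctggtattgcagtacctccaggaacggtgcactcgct
RNU2-3P: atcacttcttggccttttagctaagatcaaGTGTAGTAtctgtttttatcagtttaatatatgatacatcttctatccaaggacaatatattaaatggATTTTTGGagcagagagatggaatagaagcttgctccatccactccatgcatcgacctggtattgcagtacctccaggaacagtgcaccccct
RNU2-63P: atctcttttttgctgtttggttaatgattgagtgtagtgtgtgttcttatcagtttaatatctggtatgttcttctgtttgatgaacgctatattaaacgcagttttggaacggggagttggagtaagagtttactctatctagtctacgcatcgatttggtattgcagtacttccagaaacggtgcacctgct
Both motifs were found at bases 31 to 38 and 99 to 106 of RNU2-59P and RNU2-3P, as in RNU2-1. Neither was found in RNU2-63P, which matched RNU2-1 at 77.3% of 194 aligned positions. RNU2-59P matched RNU2-1 at 95.3% of positions, with the differences G4A, T47C, A57G, C67T, C78T, G97A, C146T, C187T and C189G (base of RNU2-1 first). RNU2-3P matched it at 93.2%, with 13 differences. GTGTAGTA occurred in 32 of 71 U2 genes and copies (45.1%) and in 2.05% of transcripts of that length range, and ATTTTTGG in 26 of 71 (36.6%) and in 2.63%.

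The U1 copy RNU1-67P lies at chrX:119423742-119423905 on the plus strand and is 164 bases long. RNU1-1, a U1 gene at chr1:16514122-16514285 on the minus strand, is shown for comparison. Capitals mark the sequence that pairs with the 5′ splice site, ACTTACCTG, and the Sm site AATTTGTGG.
RNU1-1: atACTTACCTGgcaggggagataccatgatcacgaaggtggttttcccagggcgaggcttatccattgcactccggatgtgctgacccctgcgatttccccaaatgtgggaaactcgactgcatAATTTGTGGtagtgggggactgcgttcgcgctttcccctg
RNU1-67P: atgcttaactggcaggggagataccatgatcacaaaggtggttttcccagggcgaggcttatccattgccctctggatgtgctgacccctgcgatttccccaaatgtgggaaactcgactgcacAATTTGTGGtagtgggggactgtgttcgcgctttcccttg
AATTTGTGG was found at bases 125 to 133 of both, whereas ACTTACCTG was found at bases 3 to 11 of RNU1-1 and not in RNU1-67P. The 2 sequences matched at 95.1% of positions. With the base of RNU1-1 first, they differed at A3G, C8A, G34A, A70C, C74T, T124C, C147T and C162T, and A3G and C8A fall inside the 5′ splice site recognition sequence. ACTTACCTG occurred in 48 of 143 U1 genes and copies (33.6%) and in 2.58% of transcripts of 140 to 200 bases, and AATTTGTGG in 65 of 143 (45.5%) and in 3.47%. All motifs were searched on the transcribed strand only, and a match describes the letters and not a working site.

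How far an exact read of 50 bases could separate the copies was examined on GRCh38. Every 50-base window had a single exact match in the genome in RNU2-59P (142 of 142 windows), RNU2-3P (142 of 142), RNU2-63P (145 of 145) and RNU1-67P (115 of 115). The share was 91 of 92 windows in RNU4-2 and 80 of 92 in RNU4-1. In RNU1-1 and RNU2-1, 0 of 115 and 0 of 142 windows had a single match, since 8 and 11 loci carried the same full-length sequence. The read length and the treatment of reads with several matches are not given in the sources used here, and how a read with sequencing errors or with bases of another copy was placed was not tested. Values of single copies are uncertain for that reason, and sums over each family are given beside them.

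Library totals ranged from 9213877 to 27483148 counts, with scaling factors (trimmed mean of M values, TMM) of 0.758 to 1.28. Counts divided by these totals and scaled by the factors are given as CPM throughout. Reads counted at ORC1 were at 1108 and 18551 CPM in IP replicates 1 and 2, against 333 and 5063 CPM in Input. The plasmid sequence was codon-optimized, and which part of its reads was counted at the genomic gene was not tested. All 7 epithelial markers checked for HCT116 were above 1 CPM in every library. Of 9 markers of other cells, 3 (CD3E, DCN and PECAM1) were at 0 and 7 were under 1 CPM in every library. The summed level of the 9 markers ranged from 8.42 to 29.5 CPM, and the fibroblast collagen gene COL1A1 was above 1 CPM in every library (7.90 to 26.7 CPM).

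U4 snRNA was low in both immunoprecipitates. RNU4-1 had 6 and 37 counts in IP replicates 1 and 2, and 132 and 781 counts in Input (0.288 and 2.10 CPM, against 7.56 and 66.8 CPM). IP was 26.2-fold lower than Input in replicate 1 (95% interval 11.7 to 72.8) and 31.8-fold lower in replicate 2 (22.8 to 45.4). The groups did not overlap, and the fold was similar in the 2 replicates although the levels in Input were 8.84-fold apart. The fit, with group as the only term, gave RNU4-1 a log2 fold change of -4.99 ± 1.18 (SE; n = 2 libraries in each group). The errors of this fit include shifts that IP and Input of one replicate shared. With the replicate number as a block the log2 fold change was -4.92 ± 0.25. The intervals are exact and cover counting error only, since reads carry no molecular identifiers.

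RNU4-2, the neighbouring U4 gene, had 13 and 46 counts in IP and 59 and 751 counts in Input (0.624 and 2.62 CPM, against 3.38 and 64.3 CPM). Both IP libraries were again below both Inputs. In replicate 2 the fold was 24.6 lower in IP (95% interval 18.2 to 33.8), close to that of RNU4-1, whereas in replicate 1 it was 5.41 (2.93 to 10.8). RNU4-2 was the listed row whose Input levels were furthest apart, 19.0-fold between replicates. The fit gave -4.40 ± 1.31 on the log2 scale (SE, n = 2), and it was the only listed row not called depleted in edgeR (adjusted p under 0.05 and log2 fold change below -1). With the replicate number as a block its log2 fold change was -4.05 ± 0.45 and the row was called.

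Among the U2 copies, RNU2-59P held the most reads. It had 45 and 71 counts in IP and 689 and 1636 counts in Input (2.16 and 4.04 CPM, against 39.5 and 140 CPM). IP was 18.3-fold lower in replicate 1 (95% interval 13.5 to 25.3) and 34.7-fold lower in replicate 2 (27.3 to 44.6), and the intervals do not overlap. The fitted log2 fold change of -4.86 ± 0.67 (SE, n = 2) had the smallest error of the listed rows. RNU2-3P had 5 and 18 counts in IP and 82 and 226 in Input (0.240 and 1.02 CPM, against 4.70 and 19.3 CPM). Its IP level was 19.6-fold lower in replicate 1 (8.05 to 61.8) and 18.9-fold lower in replicate 2 (11.7 to 32.5), with a fitted log2 fold change of -4.26 ± 0.86.

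RNU2-63P, the most diverged copy, had 0 counts in both IP libraries and 14 counts in each Input (0.802 and 1.20 CPM). Against a floor of 3 counts per library (0.144 and 0.171 CPM), IP was at least 5.57-fold lower in replicate 1 and at least 7.02-fold lower in replicate 2. The fitted log2 fold change of -7.07 ± 1.33 depends on the prior count and sets no bound. Its Input levels were the closest of the listed rows, 1.49-fold apart. The depth of the IP libraries thus does not show whether RNU2-63P fell by more or less than the other copies.

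RNU1-67P, the U1 copy, had 4 and 39 counts in IP and 150 and 588 counts in Input (0.192 and 2.22 CPM, against 8.59 and 50.3 CPM). The IP level was 44.7-fold lower in replicate 1 (95% interval 17.1 to 166) and 22.7-fold lower in replicate 2 (16.4 to 32.2), with intervals that overlap. The groups did not overlap, and the fit gave -4.64 ± 1.10 on the log2 scale (SE, n = 2). Per kilobase of exonic length, RNU1-67P had 52.4 and 307 CPM per kb in Inputs 1 and 2. It was close to RNU4-1 (53.6 and 474) in Input 1 and below it in Input 2, and below RNU2-59P (207 and 733) in both. RNU2-59P was highest on this scale in both Inputs, at percentiles 99.4 and 99.9 of the tested genes, and RNU2-63P was lowest, at 4.13 and 6.18 CPM per kb. RNU4-2 and RNU2-3P were alike in Input 1 (24.0 and 24.6 CPM per kb) and differed in Input 2 (456 and 101). Neighbours in this order had overlapping ranges over the 2 Inputs, apart from RNU2-63P, which lay below the others in both.

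**Figure D1:**
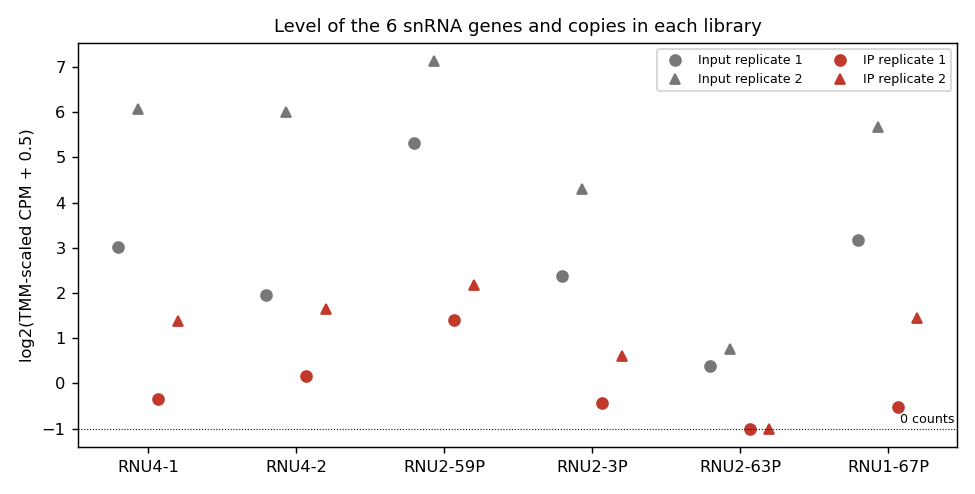
Level of the 6 listed snRNA rows as log2(TMM-scaled CPM + 0.5), one point per library, with grey for Input, red for IP, circles for replicate 1 and triangles for replicate 2. Both IP libraries lie below both Inputs for every row, and RNU2-63P, with 0 counts in both IP libraries, lies there on the dotted line at -1 that marks 0 counts.

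Of the 6 rows, 5 were called depleted and all 6 had both IP libraries below both Inputs. Across the 14645 genes tested, 8.3% were called depleted, 10.5% were called enriched and 31.9% had both IP libraries below both Inputs. The choice of the rows used this contrast, so nothing is read from the difference between these shares. The median fitted log2 fold change of the 6 was -4.75, against 0.01 for all genes tested. It was -4.52 with RNU2-63P at the value set by its floor of 3 counts. The median replicate log2 ratio, on the scale of log2(CPM + 0.5), was -3.08 in replicate 1 and -4.30 in replicate 2. That scale understates the ratio of rows with few reads.

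The listed rows also varied between replicates of one group. From Input 1 to Input 2 they differed by a median of 2.21 on the log2(CPM + 0.5) scale, higher in replicate 2, and 5 of the 6 were past 1, against a median of 0.01 and 1009 of 14645 genes past 1 over all genes tested. The IP libraries differed in the same direction, by a median of 1.26. The folds between Inputs ranged from 1.49 for RNU2-63P to 19.0 for RNU4-2, and those between IPs from 1.87 for RNU2-59P to 11.5 for RNU1-67P among the 5 rows with reads there. The level counted at ORC1 was likewise higher in replicate 2 of both groups, and the Input of replicate 2 was the shallowest library. The part of either in the snRNA levels was not tested. Between these bulk Inputs, less of an RNA per cell and fewer cells holding it cannot be told apart.

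**Figure D2:**
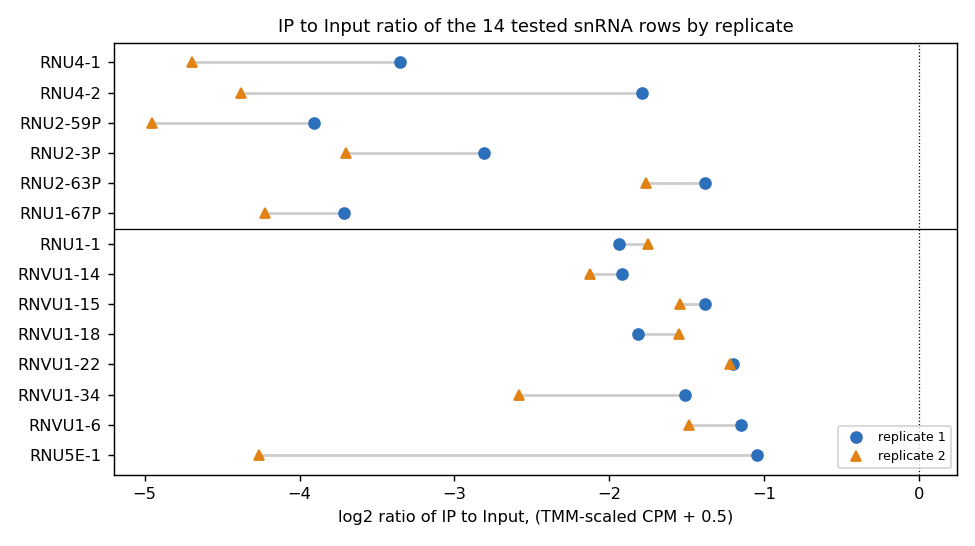
Log2 ratio of IP to Input on the log2(TMM-scaled CPM + 0.5) scale (horizontal axis) for the 14 tested snRNA rows, with circles for replicate 1, triangles for replicate 2, and the listed rows above the line. Every ratio lies below 0, and the replicates are farthest apart for RNU5E-1 (-1.04 and -4.26) and RNU4-2 (-1.79 and -4.38).

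Outside the list, 8 further snRNA rows passed the count filter, and all 8 had both IP libraries below both Inputs, beside 31.9% of all genes tested. These 8 rows passed through their reads in Input, so their direction was favoured by the filter and is described only. RNU5E-1, a gene of U5 snRNA, which contacts exon ends during splicing, had 1 and 0 counts in IP and 11 and 106 in Input. Its IP level was 13.1-fold lower in replicate 1 (95% interval 1.91 to 565) and at least 42.5-fold lower in replicate 2 (exact 95% limit). RNU1-1 had 1 count in each IP library and 28 and 16 in Input, a difference of 33.4-fold (5.52 to 1365) and 24.1-fold (3.74 to 1009). Since 8 loci share its sequence, the reads of RNU1-1 cannot be placed at that gene with certainty. The fitted values of RNU5E-1 and RNU1-1 were -7.17 ± 1.66 and -4.65 ± 0.81. They rest on at most 1 count in each IP library, so they are not ranked against those of the listed rows.

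The other 6 were variant U1 genes, RNVU1-34 on chromosome 17 and the rest on chromosome 1. RNVU1-14 had the most reads, with 11 and 25 counts in IP and 59 and 92 in Input, and a fitted log2 fold change of -2.53 ± 0.65 (SE, n = 2 libraries per group). RNVU1-34 had 2 and 5 counts against 21 and 49 (-3.79 ± 0.91), RNVU1-22 had 4 and 4 against 19 and 14 (-2.41 ± 0.70), and RNVU1-6 had 5 and 4 against 20 and 18 (-2.48 ± 0.68). These 4 were called depleted. RNVU1-15 (0 and 3 counts against 14 and 17, -3.68 ± 1.12) and RNVU1-18 (0 and 4 against 22 and 19, -3.65 ± 1.08) were not. As in RNU1-1, 0 of 115 windows of RNVU1-18 had a single match in the genome. Over all 14 tested snRNA rows, 11 were depleted (78.6%, beside 8.3% of all genes tested) and 0 enriched (beside 10.5%). Their median was -4.33, or -4.03 with RNU2-63P at the value set by its floor of 3 counts. Rows such as RNU1-1 and RNU5E-1 entered through their Input counts alone, so these counts and medians lean to depletion by the choice of rows. The 8 rows outside the list had a median of -3.67, and their Inputs differed by a median of only 0.45 on the log2 scale.

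Most snRNA rows could not be tested. Of the 1804 in the table, 1373 were listed at 0 in every library, and 417 had reads but did not pass the filter. RNU1-3, RNU1-4, RNU2-2P, RNU6-1 and RNU7-1 were among those at 0. RNU1-3 and RNU1-4 had 0 of 115 windows with a single match, so their 0 counts need not mean that the RNA was absent. Untested rows leaned both ways. RNU6-2 had 10 and 9 counts in IP against 4 and 5 in Input, RNU6-510P had 3 and 8 against 0 and 4, and RNU1-103P had 3 and 8 against 0 and 3. Other untested rows had reads almost solely in Input 2. The U2 copy RNU2-61P had 4 and 10 counts in IP, 3 in Input 1 and 400 in Input 2. The U5 gene RNU5A-1 had 1 and 0 counts against 2 and 62, RNU5B-1 had 0 and 3 against 1 and 38, and RNU6ATAC, the U6 counterpart of the minor spliceosome, had 0 and 1 against 0 and 22.

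Sums over all rows of a family do not depend on which row of that family a read was given to. They do depend on whether reads with several matches were counted at all, which is not given, so they need not be family totals. RNU2-1 was not analysed here and is in neither the U2 sum nor the U2 shares. Summed U2 had 3.22 and 6.49 CPM in the IPs and 46.3 and 201 CPM in Input, a 14.4-fold and 31.0-fold lower level, and a fitted log2 fold change of -4.68 ± 0.75 (SE, n = 2 libraries per group). Summed U4 had 22 and 95 counts in the IPs and 209 and 1588 counts in Input, and its IP CPM was lower by 11.3-fold and 25.1-fold (-4.53 ± 1.20). Summed U1 had 1.82 and 6.31 CPM in the IPs and 20.8 and 74.7 CPM in Input, lower by 11.4-fold and 11.8-fold (-3.56 ± 0.76). The listed rows held 97.2% (exact 95% interval 95.8 to 98.2) of the U2 reads and 91.4% (86.7 to 94.8) of the U4 reads of Input 1, and 79.9% (78.2 to 81.5) and 96.5% (95.4 to 97.3) in Input 2. RNU1-67P alone held 41.3% (36.2 to 46.6) and 67.4% (64.1 to 70.5) of the U1 reads of Inputs 1 and 2. RNU1-1, RNU1-2, RNU1-3 and RNU1-4 each had 0 of 115 windows with a single match. If reads with several matches were left out, these genes could hardly gain reads. The U1 shares therefore describe counted reads and not U1 RNA.

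Families with no listed row were below Input as well. Summed U5 had 0.144 and 0.398 CPM in the IPs and 1.66 and 20.6 CPM in Input, with a fitted log2 fold change of -5.35 ± 1.26. U6 snRNA is transcribed by RNA polymerase III and ends in a uridine tract bound by LSm proteins. Summed over 280 rows with reads, U6 had 3.12 and 7.17 CPM in the IPs and 8.02 and 32.6 CPM in Input (-1.98 ± 0.68). U7 snRNA acts in histone mRNA 3′ end processing and not in splicing. Summed over 32 rows with reads, U7 had 0.288 and 0.626 CPM against 0.745 and 3.59 CPM (-2.22 ± 0.90). RNU6-1 and RNU7-1 were at 0 in every library, so these sums need not describe the working U6 and U7 RNAs. The U6 and U7 sums were lower in IP by 2.57-fold and 2.58-fold in replicate 1 and by 4.55-fold and 5.74-fold in replicate 2. The difference between families was not tested.

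The calls of the listed rows changed with the test and with the libraries used. limma voom called 2 of the 6 and the fit without a count filter called 3. A filter of 1 CPM in 2 libraries called 4, and RLE size factors, upper quartile scaling and DESeq2 each called 5. Scaling by library size alone and the replicate block each called 6. The block gave -4.70 ± 0.23 for RNU2-59P, -4.23 ± 0.30 for RNU2-3P, -4.69 ± 0.26 for RNU1-67P and -7.06 ± 1.16 for RNU2-63P. With 1 library left out, the lone library of its group is assumed to vary like the other group. The spread in fits with 1 IP thus comes from the 2 Inputs, which were up to 19.0-fold apart for these rows. Both fits with 1 IP rest on the same Inputs, and why their calls differed was not tested. Without IP replicate 1, 0 of the 6 listed rows and 0 of all snRNA rows were called, although the fitted log2 fold changes stayed between -6.94 and -3.47. Without IP replicate 2, 5 were called and the values ranged from -7.13 to -5.31. Without Input replicate 2, the library with the highest snRNA levels, the log2 fold changes were -2.82 for RNU4-1, -1.21 for RNU4-2, -3.82 for RNU2-59P, -3.05 for RNU2-3P and -3.00 for RNU1-67P, and 4 of these were called. Without Input replicate 1 they ranged from -5.80 to -4.92 and all 5 were called. RNU2-63P did not pass the filter without either Input. No listed row with a value changed direction in these fits.

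**Figure D3:**
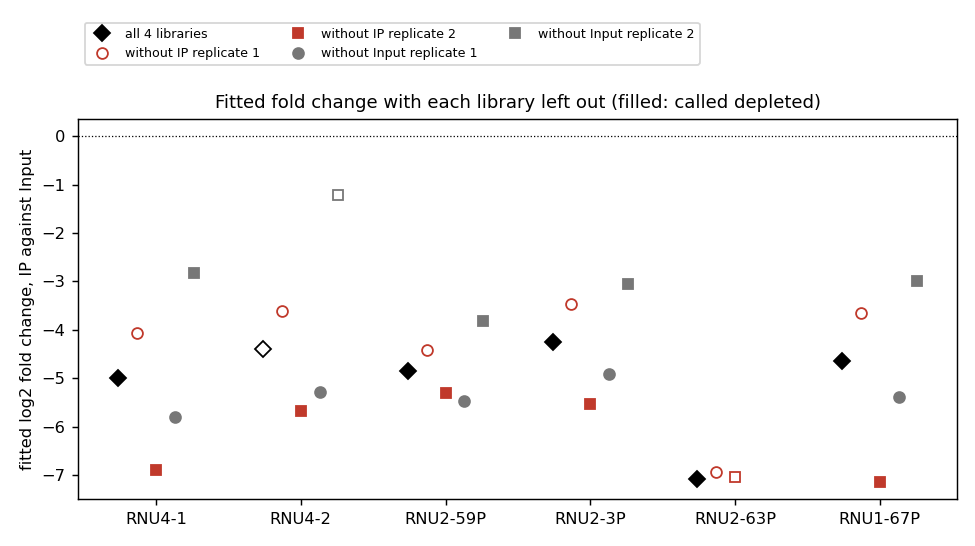
Fitted log2 fold change of IP against Input for the 6 listed rows with all 4 libraries and without each library in turn, where filled points were called depleted and open points were not. All points lie below 0, those without IP replicate 1 are all open, and RNU2-63P has no point without either Input because it did not pass the filter.

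The surroundings of the listed rows were compared with the rows themselves. RNU2-59P lies within the span of BTRC, which encodes a substrate receptor of an SCF ubiquitin ligase, on the opposite strand and without exonic overlap. BTRC had IP levels of 102 and 91.4 CPM and Input levels of 81.0 and 79.7 CPM (log2 fold change 0.26 ± 0.22, edgeR adjusted p = 0.414). RNU1-67P lies within the span of SLC25A43, a mitochondrial carrier family gene, on the same strand and also without exonic overlap. SLC25A43 had IP levels of 8.45 and 5.52 CPM and Input levels of 12.7 and 10.9 CPM (log2 fold change -0.75 ± 0.30, edgeR adjusted p = 0.110). The exons of SLC25A43 held more counts than RNU1-67P in Input 1 (222 against 150) and fewer in Input 2 (127 against 588). SIRT4, which encodes a mitochondrial sirtuin and lies 9078 bases from RNU4-1, was at -0.55 ± 0.54 on the log2 scale (edgeR adjusted p = 0.496). None of these 3 genes was called. DPCD, the nearest gene on the higher side of RNU2-59P at 205524 bases, was enriched, with 71.0 and 49.3 CPM in IP against 26.2 and 22.2 CPM in Input (log2 fold change 1.31 ± 0.26, edgeR adjusted p = 0.0184). RNU2-3P and RNU2-63P lie in or near lncRNA genes that were not analysed here.

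Other short noncoding RNAs give the setting of these values. Tested genes other than snRNA with an exonic length of at most 300 bases numbered 73. Of these, 17 were depleted (23.3%, beside 8.3% of all genes tested) and 0 enriched (beside 10.5%), with a median log2 fold change of -1.39. Among 33 snoRNAs, which guide modification of ribosomal RNA, 3 were depleted (9.09%, near the 8.3% of all genes tested) with a median of -1.54. Among 6 scaRNAs, which guide modification of snRNAs, 1 was depleted (16.7%, beside 8.3%) with a median of -1.29. The 14 genes annotated as misc_RNA, a class that includes 7SL and 7SK copies, held 11 depleted genes (78.6%, beside 8.3%). Their median was -4.42, near that of the 14 snRNA rows. How far the count filter favoured this direction in these classes was not examined. The misc_RNA genes did not share the replicate pattern of the listed rows, as their Inputs differed by a median of -0.03 on the log2 scale. The medians for snoRNAs and scaRNAs were 1.10 and 1.13. The difference between snRNA and the other classes was not tested.

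The genes whose levels over the 4 libraries were most like the mean of the listed rows were found by Euclidean distance between centred log2(CPM + 0.5) profiles. HMGA2-AS1 was nearest, at a distance of 0.406, with 66 and 102 counts in IP and 302 and 1119 in Input. It was followed by SNHG3, a snoRNA host gene (0.778), the olfactory receptor genes OR51M1 (0.782) and OR52D1 (0.807), and SNORA73B, an H/ACA snoRNA gene (0.818). Among the listed rows themselves the distance to their mean ran from 0.297 for RNU2-3P to 2.41 for RNU2-63P. With 4 libraries in 2 groups, the likeness rests on few points.

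The mRNAs of the proteins that bind or build these snRNAs lay on both sides of Input. Of 110 genes listed for proteins and biogenesis of small nuclear ribonucleoproteins (snRNPs), 109 were tested, 9 were depleted and 27 were enriched, with a median log2 fold change of 0.48. The depleted share of 8.26% was near that of all genes tested (8.3%), and the enriched share of 24.8% stood beside 10.5% over all genes. The list was written from textbook knowledge of the pathway. The Sm core genes were the list with the lowest median (-0.76), with 3 of 7 depleted and 0 enriched. SNRPF, a subunit of the Sm ring, had 7.73 and 8.25 CPM in the IPs and 77.4 and 40.4 CPM in Input, and was depleted by -2.88 ± 0.35 on the log2 scale (SE, edgeR adjusted p = 0.0105). SNRPE (-2.10 ± 0.32, edgeR adjusted p = 0.0116) and SNRPG (-1.40 ± 0.26, edgeR adjusted p = 0.0153) fell with it. SNRPB (-0.76 ± 0.28, edgeR adjusted p = 0.0879) and SNRPD3 (-0.44 ± 0.33, edgeR adjusted p = 0.375) did not pass the test.

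For the U1 particle, 2 of 9 genes were enriched (22.2%, beside 10.5% of all genes tested) and 0 depleted (beside 8.3%). SNRNP70, whose protein binds the first stem-loop of U1 snRNA, had 414 and 367 CPM in the IPs and 145 and 147 CPM in Input (log2 fold change 1.42 ± 0.24, edgeR adjusted p = 0.0132). PRPF39, a U1-associated splicing factor, was enriched by 1.09 ± 0.31 (edgeR adjusted p = 0.0437). SNRPA, which encodes the protein of the second stem-loop, was at 0.64 ± 0.29 (edgeR adjusted p = 0.153) and SNRPC at 0.53 ± 0.33 (edgeR adjusted p = 0.277). For the U2 particle, 7 of 16 genes were enriched (43.8%, beside 10.5%) and 2 depleted (12.5%, beside 8.3%). SF3B1, the large subunit that holds the branch site helix, had 2445 and 2271 CPM in the IPs and 480 and 527 CPM in Input (log2 fold change 2.23 ± 0.28, edgeR adjusted p = 0.0105). SF3B2 (2.11 ± 0.31) and HTATSF1 (1.87 ± 0.40) were also enriched, while the small SF3b subunits SF3B5 (-1.49 ± 0.25) and PHF5A (-1.17 ± 0.31) were depleted. SNRPA1 and SNRPB2, which bind a stem-loop of U2, were at -0.19 ± 0.28 and 1.06 ± 0.34 and were not called. With the replicate block SNRPB2 was called enriched (1.12 ± 0.19), as it was by DESeq2 (1.06), without IP replicate 2 (1.19) and without Input replicate 1 (1.63). PHF5A was not called without Input replicate 1 (-0.77) or without IP replicate 2 (-0.88).

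For U4/U6.U5 and the LSm ring, 7 of 23 genes were enriched and 2 depleted. The enriched share of 30.4% stood beside 10.5% of all genes tested, and the depleted share of 8.7% was near the 8.3% of all genes tested. PRPF3, a U4/U6 protein, was enriched by 2.35 ± 0.28 (log2, edgeR adjusted p = 0.0105), as were the tri-snRNP scaffold gene PRPF6 (2.21 ± 0.27) and the U5 GTPase gene EFTUD2 (1.76 ± 0.28). PRPF31, which encodes another U4/U6 protein, was at 0.62 ± 0.29 (edgeR adjusted p = 0.163). LSM2 of the LSm ring (-1.67 ± 0.27) and SNU13, whose protein binds the U4 5′ stem-loop (-1.45 ± 0.27), were depleted. ZCRB1 (1.48 ± 0.36) was the 1 enriched gene among 9 of the minor spliceosome, a share of 11.1%, near the 10.5% of all genes tested. Among 45 genes of snRNA synthesis and snRNP assembly, 10 were enriched (22.2%, beside 10.5%) and 2 depleted (4.4%, beside 8.3%). Enriched examples were LARP7 (2.05 ± 0.55), SART3, which helps to reassemble U4/U6 (1.73 ± 0.25), and SNAPC4 of the snRNA promoter-binding complex (1.63 ± 0.26). The depleted genes were GEMIN7 of the SMN complex (-1.69 ± 0.31) and USB1, the nuclease that trims U6 ends (-1.06 ± 0.25). SMN1 and SMN2 are near-identical copies whose reads cannot be separated with certainty, and neither was called. LARP7 was at 3.30 without Input replicate 1 and 1.26 without Input replicate 2, and was not called without IP replicate 1 (1.86). The calls of USB1 without IP replicate 1 (-0.85), of ZCRB1 without Input replicate 2 (0.90) and of PRPF39 without IP replicate 1 (1.07) or Input replicate 2 (0.59) were also lost. Without Input replicate 1, ZCRB1 was at 2.15, HTATSF1 at 2.51 and SNRPF at -2.29. Without Input replicate 2, SNRPB was called depleted (-1.16).

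Exonic length moved with these calls. The median exonic length was 7520 bases for the 27 enriched and 1909 bases for the 9 depleted genes of these lists, against 5119 bases for all tested genes, and its part in the calls was not tested. With scaling by library size alone all log2 fold changes moved by a median of -0.60, and 14 of these genes were enriched and 21 depleted. Over all genes, 55.9% of calls were enriched with TMM, against 10.4% with library size alone and 41.2% with upper quartile scaling. SNRNP70 (0.82), ZCRB1 (0.88) and LARP7 (1.46) were no longer called with library size alone, and PRPF39 lost its call under each other scaling tried. Under each of these scalings all 6 listed rows had a fold change below 0.

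**Figure D4:**
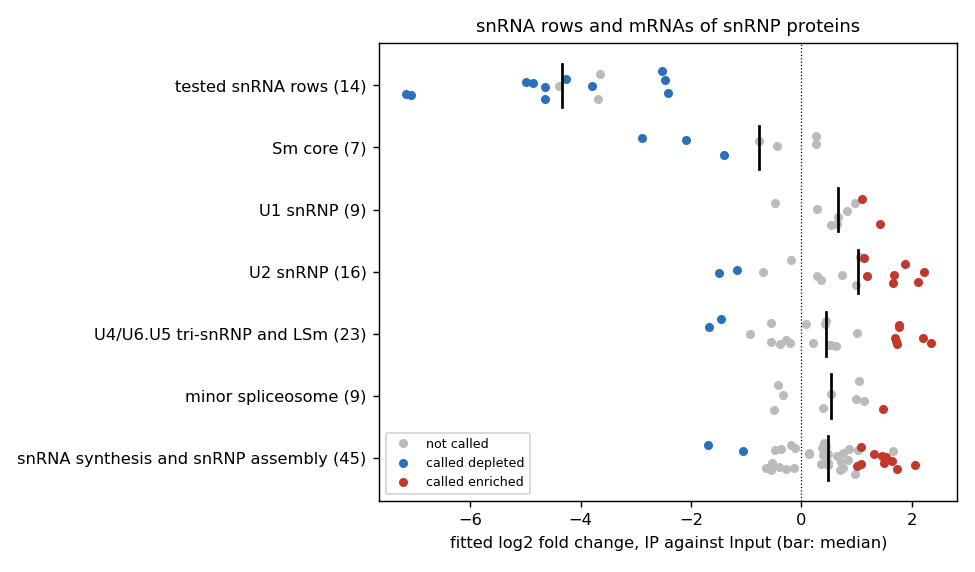
Fitted log2 fold change of IP against Input for the tested genes of each list, one point per gene, with blue for depleted, red for enriched and grey for not called, and a bar at the median of each list. The snRNA rows all lie below 0, with a median of -4.33, and the protein gene lists lie on both sides of 0, with medians from -0.76 to 1.02.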

How the data were processed

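RIP-seq counts of 2 IP and 2 Input libraries were analysed. The authors deposited unnormalized counts of reads for each gene. Trimmomatic, STAR and featureCounts were used for trimming, alignment to hg19 (GRCh37) and counting over Ensembl genes. The Ensembl release, the strand setting and the handling of multiply aligned reads are not given in the sources used here.

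Here, counts were fitted with edgeR 4.0.16 (R 4.3.3, quasi-likelihood test, robust, TMM, filterByExpr, group as the only term) on the whole table. Calls needed an adjusted p (Benjamini-Hochberg) below 0.05 with a log2 fold change past 1 or -1. Standard errors were the fold change divided by the root of F. On simulated counts with 200 of 14645 genes changed by 2 on the log2 scale, 73.5% were recovered with 9 false calls. Total counts were 27483148 and 20280445 in IP and 14677002 and 9213877 in Input.

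GENCODE v44 (GRCh38, another build than that of the counts) gave positions, lengths and sequences, joined by gene identifier. Of the rows, 11496 had no identifier in that release. Windows of 50 bases were searched with BLAST 2.17.0. Ratio intervals are exact conditional binomial intervals at 95%, and those of shares are Clopper-Pearson intervals. Libraries with one number come from one RIP experiment (numbers 242 and 243 in the labels), and their deviations from the group means correlated across genes (r = 0.645), so a replicate block was an alternative. Other alternatives were other scalings, filters and tools (DESeq2 1.42.0, limma 3.58.1 voom), each library left out, family sums, a pseudocount of 2 CPM, and unscaled CPM. The listed rows, gene lists and tests were chosen with earlier results of these data known. Named genes were the listed and the other tested snRNA rows, host or neighbouring genes, fixed snRNP genes, up to 3 called genes per protein list and direction, and the 5 genes with the most similar profile. Untested snRNA rows were named after their values were seen.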

Additional observations from a re-analysis of the deposited data

How the results depend on the processing

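Depth limits the IP values, as the 6 listed rows together held 73 and 211 IP counts. With library size alone, 3257 genes were depleted and 380 enriched, the snRNP genes gave 21 depleted and 14 enriched, and SNRPC was at -0.086. limma voom called 2 listed and 6 snRNA rows, and the fit without a count filter called 3 listed rows. With the replicate block, 1957 genes were depleted and 1960 enriched, and 6 listed and 14 snRNA rows were depleted. The blocked fit called 9 snRNP genes depleted and 33 enriched. Leaving out each library gave 846 to 1801 depleted and 1291 to 1936 enriched genes, 0 to 19 depleted snRNA rows (0 when IP replicate 1 was left out, 7 for Input replicate 2 and 19 for Input replicate 1), and 0 to 5 listed rows. For the snRNP genes it gave 8 to 13 depleted and 21 to 39 enriched. With single libraries left out, SNRPA1 ranged from -0.60 to 0.18 (0.0044 without IP replicate 1, 0.18 without Input replicate 1) and SNRPD3 from -0.95 to 0.091 (the latter when Input replicate 1 was left out). The causes were not tested. For single genes and ratios, 399 values kept direction and call, 24 lost the call, 12 gained it, 8 ratios moved by more than the replicate spread and 4 changed sign.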
